A study of Solanum lycopersicum with 12 samples.

Results

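The spray effect in root was set against the spray effect in leaf, locus by locus, as (treated root minus untreated root) minus (treated leaf minus untreated leaf). A positive value therefore means that the root response lay above the leaf response, and a negative value that it lay below. All 12 libraries of the series entered this contrast, 3 in each of 4 groups. Of the 35976 loci in the table, 19324 averaged 1 FPKM or more across the 12 libraries and were tested. FPKM is the number of sequenced fragments scaled to the length of the locus and to the size of the library. Of the 16652 loci under that level, 8156 were at 0 in every library.

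The groups were young leaf and root of wild-type tomato (Solanum lycopersicum, labelled WT), from plants sprayed on the leaves with PSI-475 or with water. The series title calls PSI-475 a precision engineered biostimulant, and it was used at 2.5 mL per L. The first spray was given at an age of 65 days, 1 day before watering with 50 mM NaCl began, and the second 27 days into the salt treatment. Both organs were collected from plants 127 days old, 2 h after the lights went off. Every group, the untreated ones included, carried the salt treatment, so no library represents an unstressed plant. The labels do not tie replicates to separate plants, and p-values then measure the spread between libraries, which may be technical. In such bulk tissue, fewer cells of a type and less RNA per cell cannot be told apart.

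Leaf and root meet salinity differently. Roots are in contact with the saline solution, take up water and ions, and control what is loaded into the xylem, while leaves carry out photosynthesis, transpire and accumulate the salt that arrives. Hormones, sugars and peptides travel between the 2 organs in the xylem and phloem. The spray was given to the leaves. Young leaves were collected at an age of 127 days, after both sprays, so they need not be the leaves that were sprayed.

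The table gives locus identifiers without gene names or descriptions, and 0 of the 35976 identifiers were found in the RefSeq gene table for tomato assembly SLM_r2.1. Of the loci tested, 18610 had identifiers of the tomato locus scheme, 158 had non-coding RNA identifiers and 556 were numbered loci. Loci are therefore described by their response, their level in each organ and their place in the genome, and 4 are named by identifier. Functions, pathways and organ markers could not be assigned, and the organ labels were not checked against marker genes.

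Library totals, recovered from the digits of the FPKM values, ran from 17108347 to 22993130 fragments. Pearson correlations between replicates across the tested loci, on log2(FPKM + 1), were 0.982 to 0.994. On that scale replicates had a median SD of 0.14 (untreated) and 0.102 (treated) in leaf, and of 0.0822 (untreated) and 0.098 (treated) in root. The third untreated leaf library stood apart most, with a limma library weight of 0.26 against 0.644 to 2.08 for the others. The difference of the 2 effects had a median standard error of 0.15 (quartiles 0.117 and 0.199).

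The response to the spray differed between root and leaf at most loci. The root effect lay above the leaf effect at 9008 loci and below it at 4014, so that 67.4% of the 19324 loci passed (limma on log2(FPKM + 1), all 4 groups in 1 fit, adjusted p under 0.05), 46.6% above and 20.8% below. Differences of 2-fold or more were called at 27.6% of loci, 3235 above and 2090 below. At 4-fold the balance had turned, with 408 loci above and 735 below. At 8-fold there were 30 above and 260 below, and at 32-fold there were 0 above and 21 below. The largest differences were thus cases in which the root fell relative to the leaf. The spray effect was called at 39.2% of loci in leaf (14.8% rises, 24.4% falls) and at 69.7% in root (48.1% rises, 21.5% falls). Treated and untreated libraries did not overlap at 46.1% of loci in leaf and 75.7% in root. The root usually held the larger change: 10286 of the 13022 loci, or 79.0%, had a larger absolute effect in root than in leaf, and over all loci the median absolute effect was 0.501 in root and 0.226 in leaf.

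The excess of loci above over loci below depended on how libraries were scaled. Median-of-ratios scaling gave 5476 above and 5970 below, 47.8% above against 69.2% as deposited, and quantile normalization gave 6994 and 4931. The median difference over all loci was 0.325 as deposited, 0.13 after quantile normalization and -0.0131 after median-of-ratios scaling. Most of the shift came through the root, where the median effect went from 0.246 to 0.0921 and 0.0208. Calls that kept their direction and passed with all 3 scalings made up 48.9% of loci, 5476 above (28.3%) and 3978 below (20.6%). Nearly all calls below, 3978 of 4014, were in this group, against 5476 of 9008 above. Both other scalings lowered the median difference, so they tend to keep calls below and to drop calls above. These counts therefore do not show that calls below are the firmer ones. The excess of large negative differences was present with each scaling: at 8-fold it was 17 above and 373 below after median-of-ratios scaling, and 20 above and 286 below after quantile normalization. The lowered differences add to these counts below.

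**Figure D1:**
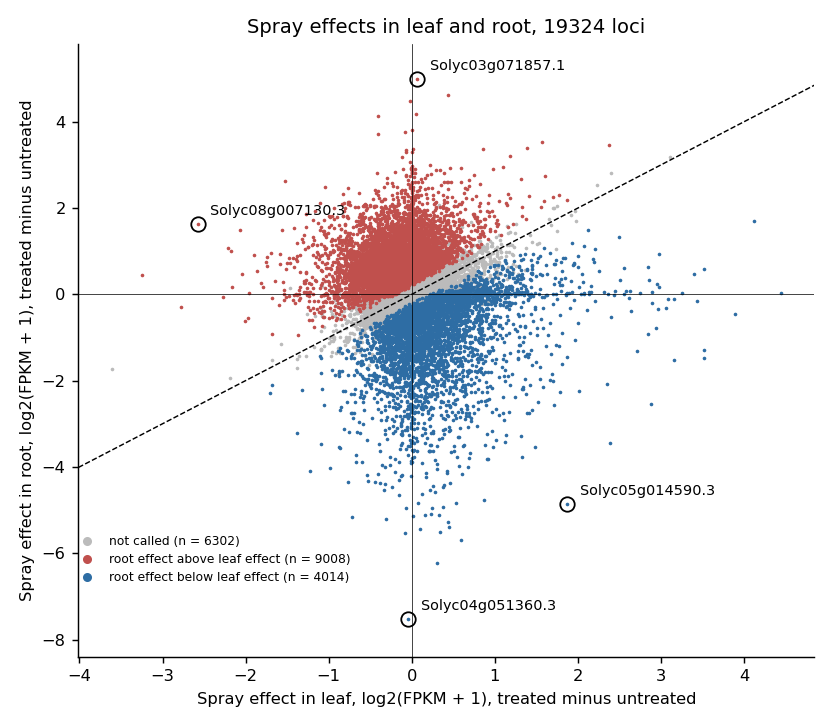
Spray effect in root (vertical axis) against spray effect in leaf (horizontal axis) for the 19324 tested loci, both as treated minus untreated on log2(FPKM + 1). Each point is a locus, red where the root effect was called above the leaf effect (9008), blue where it was called below (4014) and grey where it was not called. The dashed line marks equal effects and circles mark the 4 named loci. The cloud reaches further down than up in root.

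The commonest pattern was a rise in root with no called change in leaf. It held 4638 loci, 24.0% of those tested, whose median level went from 6.53 to 12.3 FPKM in root and from 11.4 to 10.9 in leaf. The root rises of this pattern were mostly moderate, with a median effect of 0.72 on the log2 scale, and 1450 of the loci had a 2-fold or larger difference between organs. Of the 4638, 2605 passed with all 3 scalings.

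Solyc03g071857.1 had the largest difference of this kind. It is a locus of 933 bases by its recovered length, on chromosome 3 by its identifier. In untreated root its 3 libraries gave 0.689, 0.349 and 0.173 FPKM, and in treated root 33.6, 46.3 and 50.7. All leaf libraries were near 0, between 0 and 0.385 FPKM without the spray and between 0.0968 and 0.326 with it. Treated root stood clear of the other 3 groups, and the leaf groups overlapped. Its root effect was 4.98 and its leaf effect 0.066, a difference of 4.92 (SE 0.26, limma adjusted p = 1.12e-08). The untreated root values rest on 3 to 11 fragments per library.

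Loci that moved in opposite directions were the next group. In 2758 loci, 14.3% of those tested, the leaf fell and the root rose. Their median level went from 23.9 to 17.4 FPKM in leaf and from 14.6 to 24.1 in root, so the organ with the higher median was leaf in untreated plants and root in treated ones. Another 887 loci, 4.59%, rose in leaf and fell in root, from 11.4 to 19.1 FPKM in leaf and from 31.2 to 11.9 in root. Differences were larger in the second group, with a median of -1.65 against 1.07.

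Which of these 2 groups was larger depended on scaling. The first held 1061 loci and the second 1482 after median-of-ratios scaling. After quantile normalization the counts were 1909 and 1120. All 887 loci that rose in leaf and fell in root as deposited had the same pattern after median-of-ratios scaling, and 1061 of the 2758 with the opposite pattern did. That scaling lowered the median difference, which favours keeping the pattern of the 887.

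Solyc08g007130.3, a locus of 2029 bases on chromosome 8, had the largest difference among loci with a leaf fall and a root rise. Untreated leaf held 203, 211 and 212 FPKM, and treated leaf 35.3, 32.0 and 35.2. Untreated root held 1.56, 1.66 and 1.33 FPKM, and treated root 7.07, 6.64 and 6.46. No 2 of the 4 groups overlapped. The level fell 6.1-fold in leaf and rose 4.44-fold in root, as ratios of mean FPKM. On the log2(FPKM + 1) scale the leaf effect was -2.58 and the root effect 1.62, a difference of 4.20 (SE 0.097, limma adjusted p = 4.09e-11). Leaf stayed above root in both cases, but the root-minus-leaf difference went from -6.38 in untreated plants to -2.19 in treated plants.

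Solyc05g014590.3, a locus of 1002 bases on chromosome 5, had the largest difference among loci that rose in leaf and fell in root. In root it went from 27.1, 31.5 and 28.7 FPKM without the spray to 0.0559, 0.0582 and 0 with it. In leaf it went from 0.153, 0.274 and 2.61 FPKM to 2.93, 4.17 and 11.7. The root groups were far apart, while the leaf groups were close, the highest untreated leaf library lying just under the lowest treated one. The 3 treated root libraries held 2 fragments together, against 1579 in untreated root, a ratio of 811 (exact 95% interval 224 to 6700, for counting error only). The fitted difference was -6.72 (SE 0.61, limma adjusted p = 1.14e-06). The leaf rise of 1.87 passed as the leaf contrast of the 12-library fit (limma adjusted p = 0.00482). That fit uses 1 estimate of spread for all 4 groups, and the root libraries of this locus lay closer together. On log2(FPKM + 1), leaf ran from 0.205 to 1.85 untreated and from 1.97 to 3.67 treated. Root ran from 4.81 to 5.02 and from 0 to 0.0816. The p-value thus understates the spread between leaf libraries, and the leaf libraries alone were not tested. The leaf rise was 1.37 without the third treated leaf library (limma adjusted p = 0.0177) and 2.39 without the third untreated one (limma adjusted p = 0.000339).

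**Figure D2:**
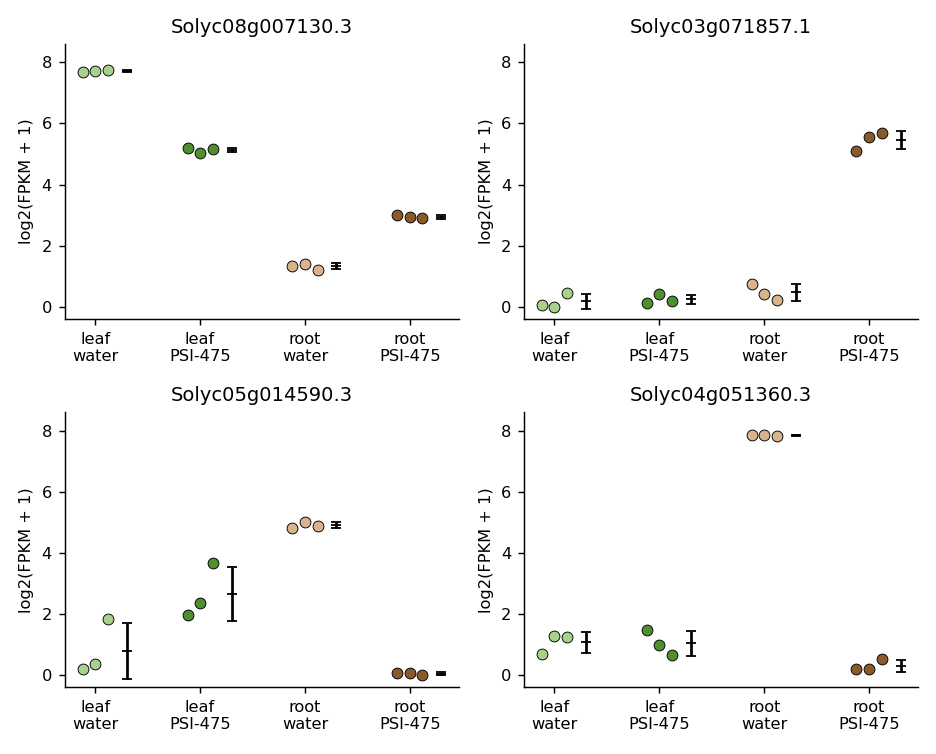
Level of the 4 named loci in every library, as log2(FPKM + 1), in leaf and root of plants sprayed with water or PSI-475. Each circle is a library, 3 per group, and the bar beside each group gives the mean and SD. Solyc05g014590.3 and Solyc04g051360.3 are near 0 in treated root, and Solyc03g071857.1 is high in treated root alone among the 4 groups.

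Falls in root without a called change in leaf made up 1917 loci, 9.92% of those tested. Their median level went from 16.7 to 6.21 FPKM in root and was 5.65 and 5.69 FPKM in leaf. Of these loci 1905 passed the difference test with all 3 scalings. As calls below, they tend to be kept by the other scalings. The largest difference belonged to Solyc04g051360.3, a locus of 1173 bases on chromosome 4. It gave 231, 228 and 227 FPKM in the untreated root libraries and 0.143, 0.149 and 0.455 in the treated ones. The leaf libraries ran from 0.608 to 1.45 FPKM without the spray and from 0.568 to 1.77 with it, and these groups overlapped. The spray thus took the locus in root to a level below that in leaf. Its difference was -7.49 (SE 0.29, limma adjusted p = 8.44e-10), the largest in absolute size of all loci tested.

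Responses seen in leaf alone were fewer. In 598 loci the leaf rose and the root was not called, with median levels of 5.81 and 12.2 FPKM in leaf and of 0.753 and 0.73 in root. At root levels under 1 FPKM, log2(FPKM + 1) leaves little room for a fall. A fall in leaf alone was called in 791 loci, whose leaf median went from 14.8 to 9.75 FPKM and whose root medians were 10.4 and 11.4. Of these, 225 passed with all 3 scalings, against 586 of the 598 rises. Rises in leaf alone are calls below, which the other scalings tend to keep.

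Loci called in the same direction in both organs, with a difference between them, numbered 1094 in all. The root rose more in 513 and fell more in 391, and the leaf rose more in 132 and fell more in 58. In the 513 loci the median effect was 0.42 in leaf and 1.17 in root, and in the 391 it was -0.364 and -1.25. In the 132 loci the order was the other way, with 1.25 in leaf and 0.519 in root. A further 339 loci passed the difference test with neither organ called alone.

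**Figure D3:**
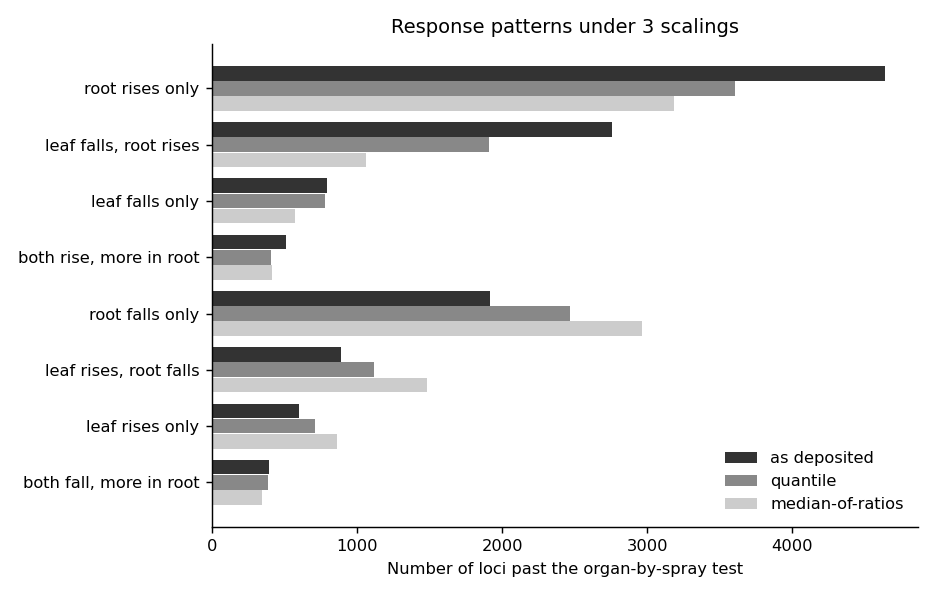
Number of loci (horizontal axis) in 8 response patterns, among loci past the test of root effect against leaf effect, with values as deposited, quantile normalized and scaled by median of ratios. From the first scaling to the last, rises in root alone go from 4638 to 3187 loci and falls in root alone from 1917 to 2965.

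The 260 loci at the lower end, with a root effect at least 8-fold below the leaf effect, shared several features. In 253 the root fell, beside 21.5% of all loci. Treated and untreated root libraries did not overlap in 253, beside 75.7% of all loci. The median root level of the 260 went from 54.6 to 3.82 FPKM, against medians of 8.16 and 9.67 over all loci. In leaf 144 of the 260 rose and 14 fell, beside 14.8% and 24.4% of all loci, and the median leaf level was 3.01 and 6.28 FPKM. In untreated plants 246 of the 260 were higher in root than in leaf, and in treated plants 114 were. Their median length of 1124 bases was below the median of 1601 over all loci.

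The 30 loci at the upper end, with a root effect at least 8-fold above the leaf effect, all rose in root, beside 48.1% of all loci. In leaf 15 of them fell and 1 rose, beside 24.4% and 14.8% of all loci. Their median level went from 2.5 to 28.5 FPKM in root and from 8.62 to 2.51 in leaf. In untreated plants 10 of the 30 were higher in root than in leaf, and in treated plants 27 were. Over all 19324 loci, 8157 were higher in root than in leaf in untreated plants and 11052 in treated plants. The members of both ends were chosen by the difference itself, so the counts are descriptions.

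Put another way, the contrast measures how far the difference between root and leaf changed with the spray. Loci at least 4-fold higher in root numbered 1620 in untreated and 1264 in treated plants, and those at least 4-fold higher in leaf 2237 and 1941. Loci within 2-fold of each other in the 2 organs rose in number from 11139 to 12429. The SD of the root-minus-leaf difference across loci went from 1.79 to 1.69 on the log2 scale. Among the 5325 loci with a called 2-fold difference, the organs were closer together in treated plants at 3232, or 60.7%, beside 56% of all 19324 loci. With median-of-ratios scaling these shares were 61.5% and 56.3%, and with quantile normalization 59.0% and 53.8%, so the share among called loci lay near that of all loci. The fall in root-higher loci was also seen with them, from 1896 to 1159 and from 1870 to 1315. The count of leaf-higher loci went from 1986 to 2062 after median-of-ratios scaling and from 1897 to 1854 after quantile normalization.

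A small number of loci changed sides outright. In 81 loci the level was at least 2-fold higher in root without the spray and at least 2-fold higher in leaf with it, and in 29 the reverse was seen. After median-of-ratios scaling these counts were 121 and 14, and after quantile normalization 94 and 16.

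**Figure D4:**
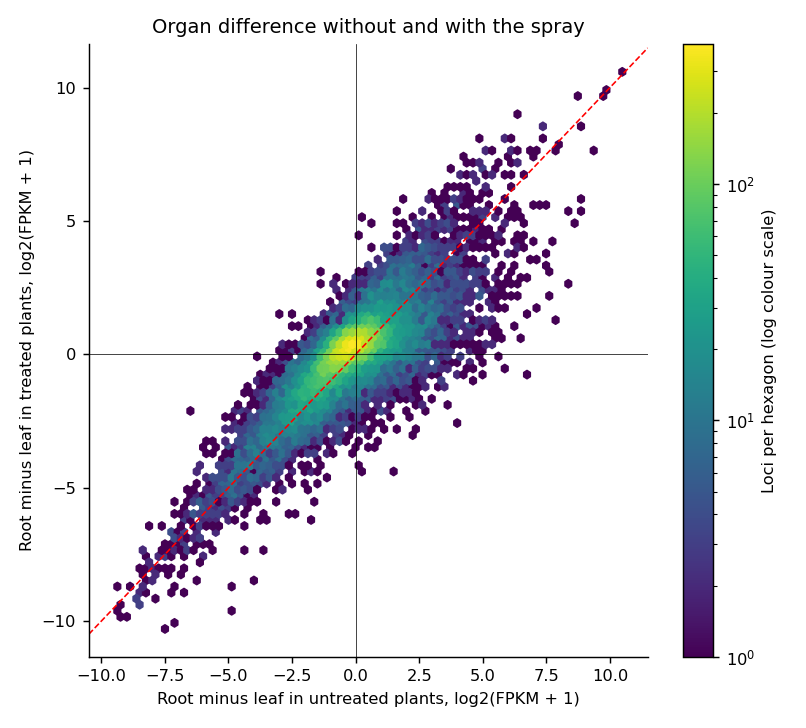
Difference between root and leaf in treated plants (vertical axis) against the same difference in untreated plants (horizontal axis), on log2(FPKM + 1), for 19324 loci grouped into hexagons coloured by their number of loci on a log scale. Points on the dashed line have the same organ difference in both. The loci at least 4-fold higher in untreated root, 1620 in all, spread widely on both sides of the line and mostly below it.

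Organ preference was then read from the average over the spray, (both root groups) against (both leaf groups). The weights of this average are orthogonal to those of the contrast of effects, but membership still depends on the response to the spray. Solyc05g014590.3, with a root-minus-leaf difference of 4.11 in untreated and -2.62 in treated plants, averaged 0.744 and counted as shared. Strong root responses can thus move loci between groups, and the group shares are descriptions. Root-preferred loci, at least 4-fold higher in root on average, numbered 1267. The root effect lay above the leaf effect in 495 of them (39.1%) and below it in 552 (43.6%), beside 46.6% and 20.8% of all loci. Only 17.4% of them were not called, beside 32.6% of all loci. Their differences were spread widely, with a median of -0.0551 and quartiles of -1.56 and 1.13. Differences of 2-fold or more were common both ways, at 27.8% above and 34.4% below, beside 16.7% and 10.8% of all loci.

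Leaf-preferred loci, 1954 in all, had 752 above (38.5%) and 487 below (24.9%), with a median of 0.154. Their commonest called patterns were a rise in root alone, with 319 loci or 16.3% of the group, beside 24.0% of all loci, and a rise in leaf alone, with 270 loci or 13.8%, beside 3.09% of all loci. The 12248 shared loci, within 2-fold between organs on average, had 6222 above (50.8%) and 1854 below (15.1%), with a median of 0.395. The pattern of a fall in leaf with a rise in root took 17.3% of shared loci, 8.14% of leaf-preferred and 6.08% of root-preferred ones. The reverse pattern took 3.23%, 3.79% and 11.1%. With median-of-ratios scaling the medians were -0.103 for leaf-preferred, -0.403 for root-preferred and 0.0388 for shared loci, against -0.0131 for all loci. The sign of the leaf-preferred median therefore differed between scalings.

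The medians of both organ-preferred groups depended on which libraries defined them, and changed sign between definitions. With groups taken from the untreated libraries alone, which the contrast also uses, 1620 loci were root-preferred and their median difference was -1.26, with 302 above and 1080 below. The leaf-preferred median was then 0.445, with 1171 above and 338 below. With groups taken from the treated libraries alone, 1264 loci were root-preferred and the median was 0.914, with 791 above and 260 below. The leaf-preferred median was then -0.132, with 512 above and 705 below. Both of these definitions share libraries with the contrast in a way that pulls the median towards their own sign. They were added after the data had been examined.

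**Figure D5:**
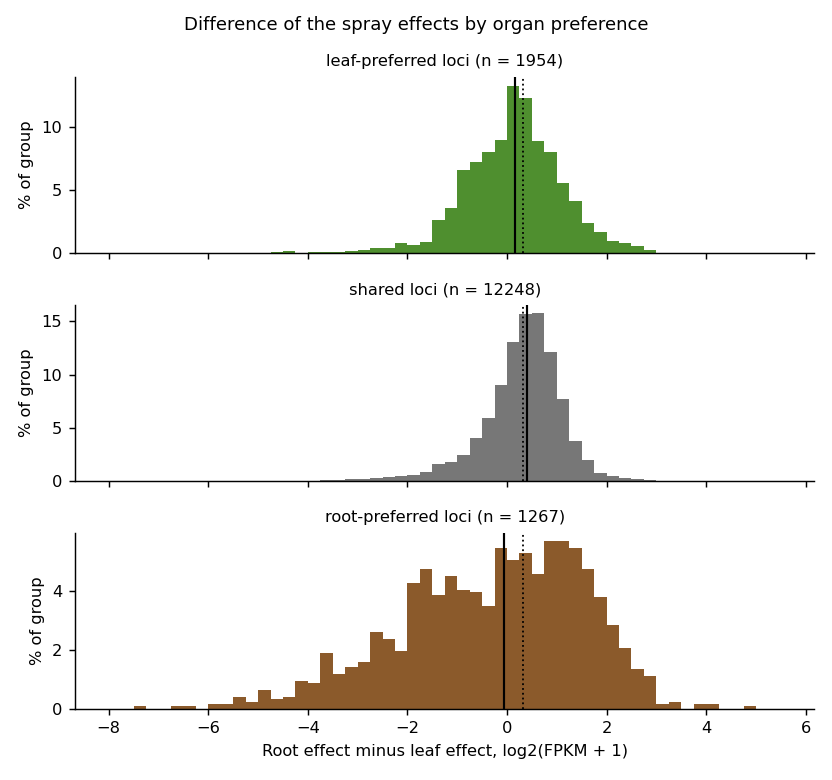
Distribution of the root effect minus the leaf effect, on log2(FPKM + 1), in leaf-preferred, shared and root-preferred loci, as percent of each group. Solid lines mark the group medians (0.154, 0.395 and -0.0551) and dotted lines the median of all loci (0.325). The root-preferred loci have the widest spread of the 3 groups.

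The shares of the libraries held by these groups changed with the spray, for leaf-preferred loci in the same direction in both organs. Root-preferred loci held 24.4% ± 0.0783 (SD, n = 3) of summed FPKM in untreated root and 17.5% ± 0.253 (SD, n = 3) in treated root. In leaf they held 1.97% ± 0.0747 and 2.01% ± 0.0354 (SD, n = 3), and these groups overlapped (2-sided exact permutation p = 0.5). Leaf-preferred loci went from 28.5% ± 0.166 to 34.1% ± 0.780 (SD, n = 3) in leaf and from 1.42% ± 0.0104 to 2.04% ± 0.0427 (SD, n = 3) in root. Shared loci went from 53.4% ± 0.150 to 48.0% ± 0.683 in leaf and from 52.4% ± 0.145 to 61.0% ± 0.395 in root (SD, n = 3). In each of these cases but the root-preferred loci in leaf, treated and untreated libraries did not overlap, with a 2-sided exact permutation p of 0.1, the smallest that 3 libraries against 3 allow. The shared loci thus lost part of the leaf libraries and gained part of the root libraries, while the root-preferred loci lost part of the root libraries. The leaf-preferred loci gained in both organs. Abundant loci weigh most in such shares, and the median root effect of root-preferred loci was -0.119.

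Loci with a large difference were followed by another such locus more often than tested loci at large were, though most were not. Tomato locus identifiers are numbered in order along each chromosome, so neighbours can be read from them. Of 2023 loci with a root effect at least 2-fold below the leaf effect and a next locus on the same chromosome, 337 (16.7%) were followed by another such locus. After any tested locus the share was 7.4%. For loci at least 2-fold above it was 563 of 3131, beside 11.4% after any tested locus. Runs of 4 or more such neighbours numbered 17 below and 21 above, with 75 and 98 loci in them. Neighbouring genes can be copies of each other, and the counting could split reads between near-identical copies, so neighbours are not independent.

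The longest run consisted of 10 consecutive loci on chromosome 4, singled out after its values had been seen. All 10 fell in leaf, beside 24.4% of all loci, with effects down to -1.74, to a median of 5.61 FPKM in treated leaf. In root 4 of the 10 rose and 0 fell, beside 48.1% and 21.5% of all loci. Their root effects ran from -0.142 to 2.63, at median levels of 0.278 and 0.848 FPKM. The 10 loci were of nearly the same recovered length, 288 to 309 bases. All 10 passed with all 3 scalings, as did 3189 of the 3235 loci called at least 2-fold above. The longest run in the other direction held 6 consecutive loci on chromosome 1. All 6 fell in root, beside 21.5% of all loci, with effects from -2.35 to -1.38. In leaf 2 fell and 0 rose, beside 24.4% and 14.8% of all loci, with effects from -0.39 to 0.118.

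The share of loci with a called difference varied with their level and length. Among loci with a mean of 1 to 5 FPKM 52.9% were called, against 67.7% from 5 to 20, 78.7% from 20 to 100 and 83.1% from 100 upward, while the median standard error went from 0.196 to 0.106. From the lowest to the highest class the part called above went from 33.2% to 52.9% and the part called below from 19.7% to 30.2%. Loci under 500 bases were called in 50.1% of cases, against 66.0% from 500 to 1000, 70.6% from 1000 to 2000, 71.7% from 2000 to 4000 and 64.2% from 4000 bases upward. Of the 158 loci with non-coding RNA identifiers, which had a median length of 108 bases, 13 were above and 18 below, and their median standard error was 0.534. Their median difference was -0.197, and -0.491 with median-of-ratios scaling, against -0.0131 for all loci. At this precision a difference of the common size, 0.628 in absolute median over all loci, was not detectable in most of them.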

How the data were processed

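The authors deposited FPKM values (fragments scaled to locus length and library size) for 35976 loci in 12 libraries, with 1 column per library, per the file headers. Per the submitters' processing notes, the tools included fastp, featureCounts and DESeq2, with no version stated. Libraries were made with a NEBNext Ultra RNA kit from 30 mg of tissue, per the labels' protocols. Neither aligner, build, gene models nor strandedness is stated (not given in the sources used here), so overlapping or antisense loci may share reads.

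Values were tested as log2(FPKM + 1) with limma 3.58.1 in R 4.3.3, 4 group means in 1 fit of 12 libraries, with a mean-variance trend, 2-sided, and Benjamini-Hochberg adjustment over all 19324 loci that averaged 1 FPKM or more. Fold classes are on this scale, which understates changes of low loci. Whole fragments, lengths and library totals were recovered from the digits of the FPKM values (tolerance 0.001), and all 27820 loci above 0 were resolved. The lengths were chosen to give whole fragments, which limits this as a check. A chi-square test of fragments compared replicate pairs. Its statistic over the degrees of freedom was 2.21 to 17.4, so none agreed within sampling noise. The fit was tested on simulated fragments. Python 3.11.15 and matplotlib 3.10.9 were used for tables and figures.

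Named loci were those with the largest positive and negative difference, among opposite calls and among calls in 1 organ, that passed with all 3 scalings and did not overlap in at least 1 organ. The planned lists by gene function needed descriptions and were not evaluated. The contrast, lists and rules were chosen with earlier results of these data known. Alternatives covered pseudocount, filter, scaling, spread estimate, library weights, replicate number, recovered fragments, threshold, group definition and each library left out.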

Additional observations from a re-analysis of the deposited data

Results flagged for a closer look

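The spray effect differed between the organs at 13022 loci by the limma test of the difference itself. The 4 named loci are singled out by the same test: the difference, root effect minus leaf effect on log2(FPKM + 1), was 4.20 for Solyc08g007130.3, 4.92 for Solyc03g071857.1, -6.72 for Solyc05g014590.3 and -7.49 for Solyc04g051360.3. These loci were chosen for the size of their difference. Groups of 3 libraries are too small for a test of outlying libraries.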

How the results depend on the processing

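Leaving out each of the 12 libraries in turn gave 12475 to 13361 called loci, against 13022, with 8583 to 9287 above and 3815 to 4074 below. The highest count was without the third untreated leaf library. The 4 named loci kept their direction and passed under every alternative run. Passing with the other scalings was part of how they were chosen, and their large differences favour passing elsewhere. No sign of pairing by replicate number was seen: deviations of same-numbered libraries from their group means correlated at -0.238 to 0.0938. The labels do not say whether same-numbered libraries share a plant, and these correlations cannot decide it. With the replicate number as a block 12785 loci were called, and with replicate by organ 12555. Recovered fragments in limma-voom gave 12281 calls, of which 11956 were shared in the same direction. Median-of-ratios scaling left 5476 loci above. Asking for a 2-fold difference left 5325 calls, 3235 above and 2090 below. Counts of loci called in opposite directions (both senses together), in 1 organ or in the same direction stayed within 1.5 times their value under every alternative run. With median-of-ratios scaling, 493 leaf-preferred loci were above, and 3516 shared loci were above and 3168 below. With preference cut at 2-fold, the numbers above and below were 1720 and 857 of leaf-preferred and 1066 and 1303 of root-preferred loci. With groups from untreated libraries they were 302 and 1080 of root-preferred loci, and 1171 leaf-preferred loci were above. With groups from treated libraries they were 791 and 260 of root-preferred loci. Beyond what each alternative is built to change, the cause was not tested. Depth limits short and low loci most.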

Other observations

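By chromosome number in the identifier, chromosomes 11 and 2 stood at the 2 ends of the numbered chromosomes, leaving aside 14 loci with the number 0. On chromosome 11, with 1255 tested loci, 53.5% had a root effect above the leaf effect and 15.7% below. On chromosome 2, with 2015 loci, the shares were 40.8% and 26.2%, beside 47.2% and 20.9% of all tomato loci. Among calls that passed with all 3 scalings the shares were 33.3% and 15.7% on chromosome 11, and 24.7% above on chromosome 2, beside 28.7% and 20.7% of all tomato loci. The median difference was 0.447 on chromosome 11 and 0.214 on chromosome 2, and 0.0943 and -0.119 with median-of-ratios scaling. The chromosomes were picked out after the values had been seen, and no test was made.

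Few of the 19324 tested loci appeared or disappeared outright. Another 8496 loci were above 0 in at least 1 library but under the filter, and were not searched. The filter on the mean over 12 libraries tends to leave out loci that are low in most groups. In root 8 loci went from at least 1 FPKM in all 3 untreated libraries to under 0.1 FPKM in all 3 treated ones, and 9 went the other way. In leaf each change was seen in 1 locus. All 8 losses and 7 of the 9 gains in root passed the test of root effect against leaf effect, beside 67.4% of all loci. These loci were picked by their change in root, which favours a call. In leaf the gained locus passed and the lost one did not. Of the 8 lost in root, 3 stayed at 1 FPKM or more in all 6 leaf libraries, as did 3 of the 9 gained.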
